A study of Mus musculus with 8 samples.

Results

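Genes of ciliary transport, the ciliary base and the motile cilium were followed in mouse neural stem and progenitor cells with and without Kat7. Protein-coding genes were taken whose symbol begins with Ift, Bbs, Dnah, Dnai, Tctn or Rfx followed by a digit, together with Foxj1. They numbered 49 of 27179 gene identifiers in the count table. The primary cilium group held 25 of them, made up of 14 Ift, 8 Bbs and 3 Tctn genes. The motile group held 16, made up of 15 Dnah genes and Foxj1, and no symbol of the Dnai form was matched. The 8 Rfx genes belong to a family with regulators of both kinds of cilium, though not every member is one, and were kept apart from both groups.

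Cilia are built by intraflagellar transport, in which trains of IFT proteins carry cargo along the axoneme, and the BBSome, a complex of Bardet-Biedl syndrome proteins, moves membrane receptors in and out of the cilium. Tectonic proteins, the Tctn genes, form part of the transition zone at the ciliary base. Neural stem and progenitor cells carry a single primary cilium that receives Hedgehog signals, whereas ependymal cells, which line the ventricles, carry tufts of motile cilia. Motile cilia beat through axonemal dyneins, whose heavy chains are encoded by Dnah genes, and FOXJ1 is the forkhead transcription factor that switches on motile cilium genes. RFX transcription factors bind the X-box, a sequence found before many genes of both kinds of cilium.

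The study sequenced polyadenylated RNA of 8 cultures of proliferating neural stem and progenitor cells, grown as floating neurospheres from C57BL/6 fetuses at embryonic day 14.5. The 4 intact cultures were Kat7+/+ NesCreT/+ and the 4 deleted cultures were Kat7lox/lox NesCreT/+, and both therefore carried a Cre recombinase transgene named for Nestin, a gene of neural progenitors. Kat7 encodes a histone acetyltransferase, and the comparison asks how expression differs without it. The fetuses of each genotype came from 3 litters (6 in all), with intact replicates 1 and 2 sharing a litter and deleted replicates 3 and 4 another. Every litter gave fetuses of a single genotype here, so effects of litter and of genotype cannot be told apart.

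Library totals ran from 10687817 to 22444359 counts. Levels are given as CPM, counts relative to the TMM-scaled library total, in which 1 read was worth 0.0436 to 0.0918. Kat7 itself stood at 85.8, 77.1, 81.0 and 92.1 CPM in intact replicates 1 to 4 and at 26.4, 0.367, 13.9 and 0.0870 CPM in deleted cultures 1 to 4. The groups did not overlap, but deleted replicates 1 and 3 kept 416 and 253 Kat7 reads against 4 and 1 in deleted replicates 2 and 4. The edgeR log2 fold change of Kat7 was -3.02 with an adjusted p of 0.128. Mitochondrial RNA took 18.95% to 23.5% of intact counts and 29.9%, 18.95%, 17.1% and 34.4% of the counts in deleted replicates 1 to 4. Markers of neural stem and progenitor cells (Nes, Sox2, Vim, Pax6, Fabp7, Slc1a3 and Hes5) summed to 5685 to 6738 CPM in intact cultures and 3911 to 6978 CPM in deleted libraries, and none of the 7 was at 0 in any library. Astrocyte markers summed to 139 to 261 CPM in intact libraries and to 2181, 238, 550 and 558 CPM in deleted cultures 1 to 4, with 3 of 8 called higher. Mesenchymal markers summed to 3.03 to 4.37 CPM in intact libraries and to 5.71, 783, 22.6 and 242 CPM in the deleted ones. Of 9 only 3 passed the filter on low counts, and 2 of these were called higher. For neuronal markers the sums were 18.0 to 23.3 CPM in intact cultures and 9.95, 116, 6.48 and 8.61 CPM in deleted libraries, with 2 of 6 tested called lower. Of all tested genes 5.10% were called higher and 2.80% lower. The part of these differences in any result below was not tested. In bulk RNA, fewer cells of a type and less RNA per cell cannot be told apart.

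The promoters of the members were searched for RFX motifs, and the shares that held one are given as a description with no test. RefSeq promoter windows (GRCm38.p6, 250 bases before to 50 after the start) were matched for 44 of 49 members, giving 45 windows. Foxj1, Ift80, Ift81, Ift122 and Dnah3 were not matched. The half-site GTTGCC, searched on both strands, was in 50% of the 22 primary cilium promoters, 28.57% of the 14 motile ones and 44.44% of the 9 RFX ones, against 12.51% of all 32851 promoters. A whole X-box was searched as GTTNCC and GGNAAC with 1 to 3 bases between them, so that a half-site can be part of it. It was in 4 of 22 primary promoters (18.18%), in 0 motile and 0 RFX promoters, and in 0.7762% of all promoters. The motifs were chosen after values had been seen, and a match describes letters only.

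These 4 carriers are shown because they bring together the BBSome, intraflagellar transport and the transition zone, and because their fitted fold changes had both signs. All are written 5′ to 3′ in the gene's direction with the X-box in capitals. Distances are counted from the start used for each promoter window. The Bbs7 stretch is the 147 bases outside the gene's full span at chr3:36613493-36613639 (minus strand), and its X-box begins 121 bases before the start. For Bbs7 that start lies inside the gene's full span, so the X-box is nearer to the end of the span than to the start. The 30-base windows of the others lie at chr16:49699226-49699255 (Ift57, plus strand, X-box from 60 bases before the start), chr5:122264411-122264440 (Tctn1, minus strand, from 36 bases after it) and chr19:40612350-40612379 (Tctn3, minus strand, from 140 before).
Bbs7: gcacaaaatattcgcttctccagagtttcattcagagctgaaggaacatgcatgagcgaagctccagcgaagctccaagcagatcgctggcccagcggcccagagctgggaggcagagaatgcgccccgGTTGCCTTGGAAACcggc
Ift57: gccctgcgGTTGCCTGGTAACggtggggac
Tctn1: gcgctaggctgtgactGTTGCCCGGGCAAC
Tctn3: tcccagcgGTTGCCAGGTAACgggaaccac

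The next windows hold the half-site alone, in capitals, in members whose values are described further on. Ift27 lies at chr15:78174073-78174102 (minus strand), Ift172 at chr5:31291097-31291126 (minus strand), Tctn2 at chr5:124598750-124598779 (plus strand) and Rfx3 at chr19:28011118-28011147 (minus strand).
Ift27: gggttgatgatgGTTGCCaggagcctgttt
Ift172: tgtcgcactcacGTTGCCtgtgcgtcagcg
Tctn2: cattgattggtgGTTGCCatggctgcaggc
Rfx3: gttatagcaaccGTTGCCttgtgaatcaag

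Few of the 49 members were called different between the genotypes. The test was edgeR's quasi-likelihood F test over 13498 genes, with calls at an adjusted p (Benjamini-Hochberg) under 0.05. Of the members, 39 passed the filter on low counts; 9 Dnah genes and Rfx6 did not. Foxj1 and Ift46 were called higher and Bbs7 lower, 3 of 39 tested members or 7.69%, against a background of 7.90% of all tested genes (5.10% higher, 2.80% lower). Of the members, 7 were higher and 4 lower with an unadjusted p under 0.05, which 26.2% of all genes had. The 4 deleted libraries lay all above or all below the 4 intact ones in 7 tested members (17.95%; 3 above and 4 below), against 19.9% of all genes (10.7% above and 9.21% below). Both shares of the members were near the background. The median log2 fold change of the 39 was 0.09, against 0.05 over all genes.

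**Figure D1:**
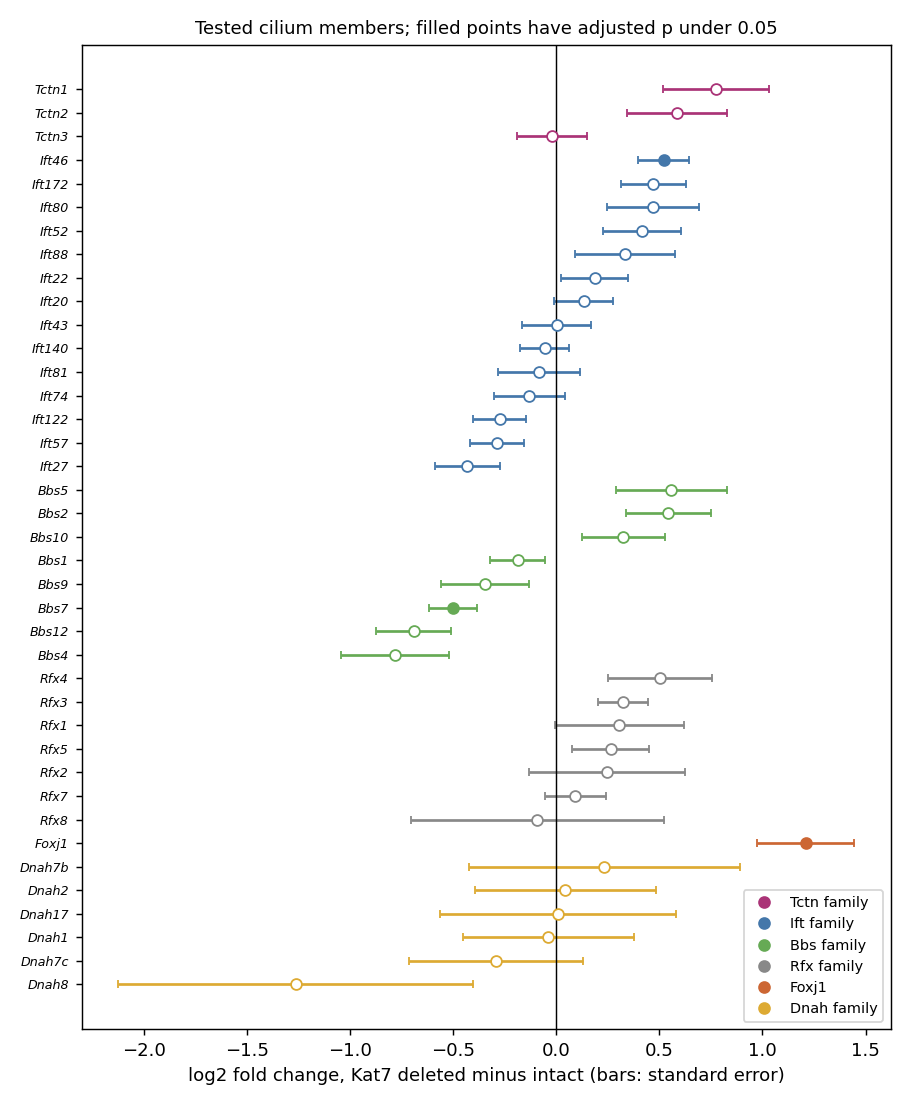
Log2 fold change, deleted minus intact (horizontal axis), for each of the 39 tested members, with bars of 1 standard error and colours for gene families. The 3 filled points, Foxj1, Ift46 and Bbs7, had an edgeR adjusted p under 0.05, and the primary cilium genes lie on both sides of 0.

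In the primary cilium group, 1 gene rose and 1 fell. All 25 members passed the filter, with 13 fitted above 0 and 12 below and a median log2 fold change of 0.00. Their 8.0% called is close to the 7.90% of all genes. With an unadjusted p under 0.05 stood 5 higher and 4 lower ones of 25, where 15.8% of all genes were higher and 10.4% lower. Genotypes did not overlap in 24% of the 25, against 19.9% of all genes. The median log2 fold change was 0.07 for 14 Ift genes, -0.27 for 8 Bbs genes and 0.59 for 3 Tctn genes. With library totals alone, where the median of all genes moved to -0.09, the Ift median turned to -0.08 while that of the Bbs genes was -0.42 and that of the Tctn genes 0.46. Intact levels ran from 2.07 to 22.0 CPM per kilobase of gene length, so every member was expressed in the intact cultures.

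Ift46, a subunit of the IFT-B train that moves cargo towards the ciliary tip, rose. It stood at 23.2, 24.0, 20.7 and 21.8 CPM in intact cultures 1 to 4 and at 29.0, 28.7, 35.1 and 36.0 CPM in deleted cultures 1 to 4. Every deleted library lay above every intact one, and deleted replicates 3 and 4, the littermates, were highest. The mean went from 22.4 ± 1.48 to 32.2 ± 3.88 CPM (SD, n = 4), a log2 fold change of 0.52 ± 0.12 (SE; edgeR adjusted p = 0.0410). The gene (Entrez 76568) lies on chromosome 9 from 44770456 to 44792714 in GRCm38. Its call was lost without any 1 of the intact libraries (adjusted p 0.108 to 0.130), with deleted replicate 3 or 4 left out (up to 0.0849) and with scaling by library totals alone (0.168). It held in 6 of 18 alternatives. Over all genes, 189 to 261 were called without 1 intact library, against 1066 with all libraries.

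Ift172, another IFT-B subunit, did not overlap between genotypes either but missed the threshold. It stood at 21.3, 16.5, 15.9 and 19.9 CPM in intact cultures and 25.5, 23.5, 22.2 and 31.0 CPM in deleted replicates, with a log2 fold change of 0.47 ± 0.16 (edgeR adjusted p = 0.0995). Ift27, a small GTPase of IFT-B that takes part in the exit of BBSome cargo, had the opposite sign. Its levels were 18.2, 19.4, 19.3 and 19.8 CPM in intact cultures and 14.6, 11.2, 17.6 and 13.4 CPM in deleted replicates (log2 fold change -0.43 ± 0.16, edgeR adjusted p = 0.124). Deleted replicate 3 lay nearest to the intact libraries. Without deleted replicates 1 and 3, the pair that kept Kat7 reads, Ift27 was called lower at -0.64 with an adjusted p of 0.0279. That pair held its highest deleted values, so leaving it out lowered the fitted value. The fit called 2299 of all genes, against 1066 with all libraries, and Ift27 was not called in 17 of 18 alternatives.

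Per kilobase, Ift20, which also serves vesicle traffic at the Golgi, had the highest intact level of the Ift genes at 22.0 CPM per kilobase. It stood at 17.2, 17.0, 17.6 and 19.0 CPM in intact cultures and 17.2, 17.7, 18.6 and 24.0 CPM in deleted replicates. Its log2 fold change of 0.13 ± 0.14 (edgeR adjusted p = 0.585) had no settled sign, turning to -0.012 with library totals alone. The IFT-A genes Ift122 and Ift140, whose products carry the return train, stood at 43.3 to 51.1 and 44.8 to 52.7 CPM in intact libraries and at 34.6 to 46.5 and 41.5 to 52.9 CPM in deleted ones (log2 fold changes -0.27 ± 0.13 and -0.06 ± 0.12). Deleted replicate 2 was the highest of all 8 libraries for Ift52, Ift80, Ift81 and Ift88, with 45.1, 60.3, 33.0 and 11.8 CPM against intact maxima of 24.6, 33.9, 25.1 and 7.33 CPM. It was also the highest for Ift22 (21.4 against an intact maximum of 16.7 CPM) and Ift74 (48.1 against 45.7). None of these genes was called. They were picked here after their values were seen.

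Bbs7, a core BBSome subunit, was the called member that fell. It stood at 30.2, 29.2, 32.7 and 28.7 CPM in intact cultures and at 20.0, 23.4, 22.9 and 19.1 CPM in deleted cultures 1 to 4. The 2 genotypes were separated by more than the range within either. The mean went from 30.2 ± 1.77 to 21.4 ± 2.12 CPM (SD, n = 4), so that the gene fell by 0.50 ± 0.12 on the log2 scale (edgeR adjusted p = 0.0387). Bbs7 (Entrez 71492, chromosome 3, 36573142 to 36613492) also had the highest intact level of the family at 11.6 CPM per kilobase. The call was lost without any 1 of the intact libraries (adjusted p 0.0855 to 0.117), with deleted replicate 3 or 4 left out (up to 0.0759) and with littermates summed (0.146). Over all genes, 189 to 261 were called without 1 intact library, against 1066 with all libraries. It was also lost without the pair of deleted libraries that kept Kat7 reads (0.0527), and held in 5 of 18 alternatives.

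Bbs12 and Bbs4 were likewise below the intact range in all 4 deleted libraries without passing the threshold. Bbs12, a chaperonin-like factor of BBSome assembly, stood at 10.8, 10.5, 11.2 and 8.85 CPM in intact cultures and 5.26, 7.53, 6.70 and 6.17 CPM in deleted replicates (log2 fold change -0.69 ± 0.18, edgeR adjusted p = 0.0522). It was called by DESeq2, with an adjusted p of 0.00486, and by edgeR with deleted replicate 2 left out (0.0287). Those 2 fits called 2200 and 2182 of all genes, against 1066 by edgeR with all libraries. Bbs12 was not called in 15 of 18 alternatives. Bbs4, a subunit of the assembled complex, stood at 12.2, 12.3, 11.2 and 13.0 CPM in intact cultures and 11.0, 6.43, 6.20 and 4.61 CPM in deleted replicates (-0.78 ± 0.26, edgeR adjusted p = 0.102). Deleted replicate 1, the library with most Kat7 reads of its genotype, lay just under the lowest intact one. Without that library Bbs4 was called at -1.08 with an adjusted p of 0.0116, and without both libraries that kept Kat7 reads at -1.14 (0.0117). Over all genes these fits called 1721 and 2299, against 1066 with all libraries.

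The Bbs genes had fold changes of both signs. Of 8 genes, 5 were fitted below 0 and 3 above. Wholly below the intact range lay 3 (37.5%), where 9.21% of all genes did, and 0 lay wholly above it. Bbs2 and Bbs5, both BBSome subunits, had log2 fold changes of 0.54 ± 0.21 and 0.56 ± 0.27 (edgeR adjusted p = 0.139 and 0.224) and overlapped between genotypes. The exons of Bbs4 share 3.21% of their bases with Adpgk on the opposite strand and those of Bbs12 share 1.31% with Cetn4. Whether reads were counted by strand is not given in the sources used here, so those reads cannot be told apart.

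**Figure D2:**
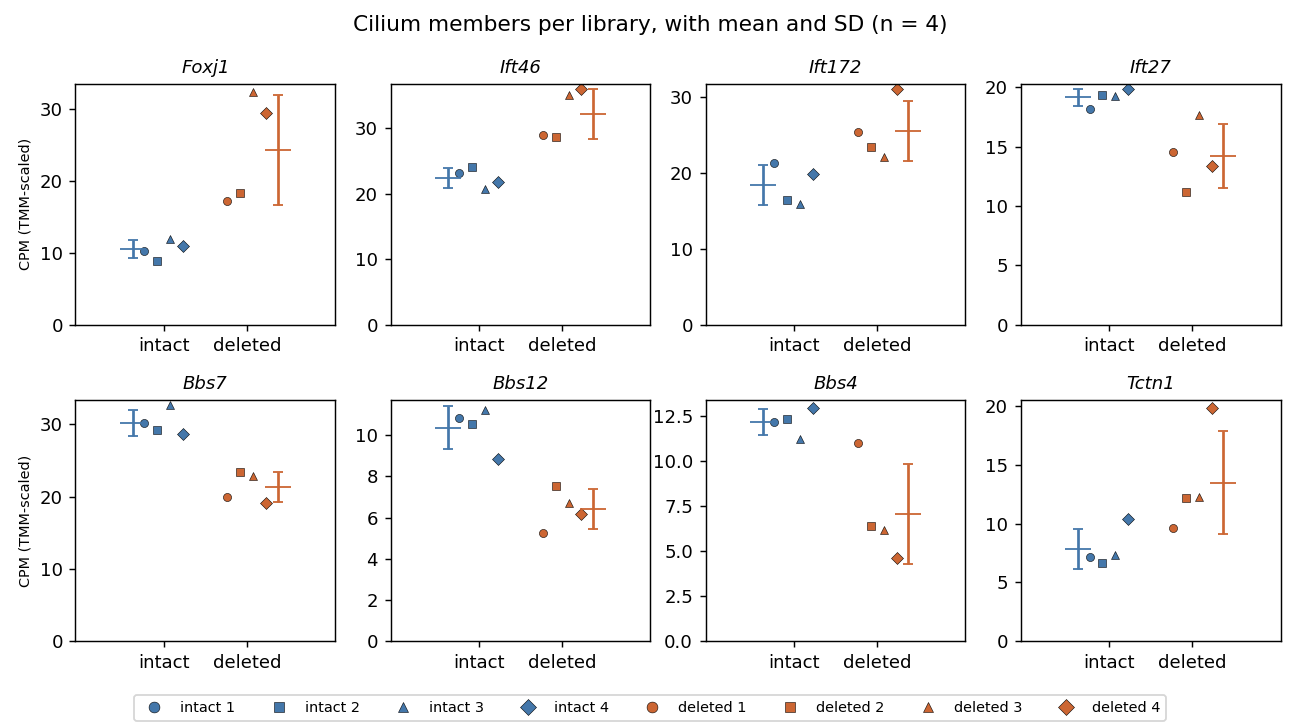
CPM (vertical axes, from 0) in each library for 8 members, with intact replicates in blue, deleted replicates in orange and bars for mean and SD (n = 4). Foxj1, Ift46 and Ift172 lie higher in every deleted library, Ift27, Bbs7, Bbs12 and Bbs4 lower in every one, and Tctn1 overlaps.

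None of the 3 tectonic genes was called, where 7.90% of all tested genes were. Tctn1, which acts at the transition zone in Hedgehog signalling, stood at 7.13, 6.64, 7.34 and 10.4 CPM in intact cultures and at 9.64, 12.2, 12.3 and 19.8 CPM in deleted replicates. The groups overlapped through intact replicate 4 and deleted replicate 1. Its log2 fold change was 0.77 ± 0.26 (edgeR adjusted p = 0.100). It was called without deleted replicate 1 (0.0474), its lowest deleted library, in a fit that called 1721 of all genes, against 1066 with all libraries. Of its exon bases 19.0% are shared with Hvcn1 on the opposite strand, a proton channel gene with a log2 fold change of 0.50 ± 0.28 (edgeR adjusted p = 0.290), so reads of the pair cannot be told apart. Tctn2 ran from 8.02 to 9.84 CPM in intact libraries and from 7.93 to 16.8 CPM in deleted ones (0.59 ± 0.24, edgeR adjusted p = 0.166). Tctn3, at 12.3, 11.8, 9.54 and 13.7 CPM in intact cultures and 12.4, 10.7, 10.3 and 13.4 CPM in deleted replicates, differed by -0.02 ± 0.17 (edgeR adjusted p = 0.957), with a sign that turned under 4 alternatives.

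Set against the promoter sequences above, X-box carriers gave fold changes of both signs. Bbs7 fell, Ift57 differed by -0.29 ± 0.13, Tctn3 by -0.02 and Tctn1 by 0.77. Of the exon bases of Ift57, 7.86% are shared with Gm15518 on the opposite strand. Of the primary cilium genes with a promoter window, the 11 with a half-site had a median log2 fold change of -0.02 and 1 call, and the 11 without one had a median of 0.13 and 1 call.

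The displacement of the families varied between deleted cultures. Relative to the intact mean, the median Bbs gene lay at 0.01, -0.31, -0.27 and -0.26 log2 units in deleted replicates 1 to 4, so deleted replicate 1 stood apart from the other three. The median Ift gene lay at -0.01, 0.28, 0.01 and 0.14. For the 3 Tctn genes the values were 0.07, 0.65, 0.45 and 0.84. Over all tested genes the medians were 0.04, 0.01, 0.02 and 0.01.

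**Figure D3:**
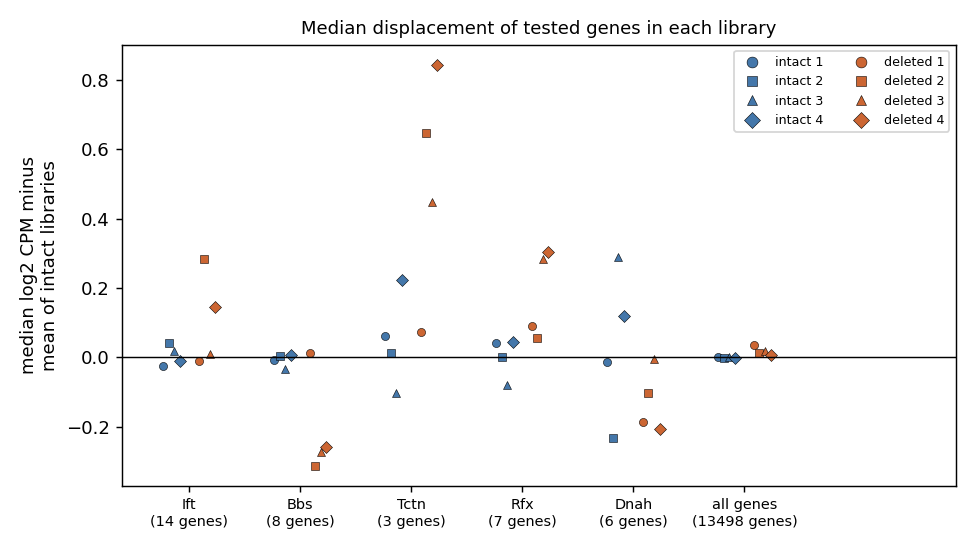
Median over the tested genes of each family of log2 CPM minus the mean of the intact libraries (vertical axis), for each of the 8 libraries, with the number of genes under each family name. The Bbs median lies between -0.31 and -0.26 in deleted replicates 2 to 4 and at 0.01 in deleted replicate 1, while the median of all genes lies within 0.04 of 0.

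Other genes of the primary cilium gave a similar share of calls. A list of 44 further genes covered IFT subunits not named Ift, kinesin-2 and dynein-2 motors, BBSome partners, the transition zone and the ciliary membrane. Of 43 tested, 2 rose and 1 fell (6.98%), 6 were higher and 4 lower with unadjusted p under 0.05, and the median log2 fold change was 0.03. Tulp3, which carries G protein-coupled receptors into the cilium, stood at 22.1, 19.4, 25.9 and 19.9 CPM in intact cultures and 57.9, 36.8, 51.0 and 31.7 CPM in deleted replicates (log2 fold change 1.03 ± 0.21, edgeR adjusted p = 0.0245). Every deleted library lay above every intact one.

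Gpr161, a receptor that enters cilia with TULP3 and restrains Hedgehog signalling, fell. It stood at 12.5, 13.9, 11.7 and 13.1 CPM in intact cultures and at 9.83, 7.90, 7.96 and 8.52 CPM in deleted replicates (-0.58 ± 0.15, edgeR adjusted p = 0.0497). The 9 tested IFT subunits of this list held 0 calls, with 3 higher and 2 lower with unadjusted p under 0.05 where 26.2% of all genes passed, and the 9 motor genes held 0 calls by edgeR with 0 at an unadjusted p under 0.05. Tulp3 and Gpr161 each lost the call without any 1 of the intact libraries (adjusted p up to 0.0936 and 0.161), Tulp3 also without deleted replicate 3 and Gpr161 with deleted replicate 3 or 4 left out (up to 0.0521 and 0.0994). Over all genes, 189 to 261 were called without 1 intact library, against 1066 with all libraries. The calls held in 10 and 8 of 18 alternatives.

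Foxj1 was the only motile cilium member called, and 0 of the 6 tested dyneins were called, where 7.90% of all tested genes were. Foxj1 stood at 10.3, 8.91, 11.9 and 10.9 CPM in intact replicates 1 to 4 and at 17.2, 18.3, 32.3 and 29.4 CPM in deleted cultures 1 to 4. The lowest deleted library lay above the highest intact one, and the littermates, deleted replicates 3 and 4, were highest. The mean went from 10.5 ± 1.25 to 24.3 ± 7.70 CPM (SD, n = 4). The gene (Entrez 15223) lies on chromosome 11 from 116330704 to 116335499 in GRCm38. Its log2 fold change was 1.21 ± 0.23 (edgeR adjusted p = 0.0214), and alternatives ran from 1.04 to 1.34. The call held without any 1 deleted library and in 12 of 18 alternatives. It was lost without any 1 of the intact libraries (adjusted p 0.0602 to 0.0840), with littermates summed (0.113) and with litter as a random block (0.0561 by limma-voom). Without 1 intact library the log2 fold change stayed at 1.13 to 1.27, while calls over all genes dropped from 1066 to between 189 and 261.

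The axonemal dynein genes were low in both genotypes. Intact levels of the 15 Dnah genes ran from 0.00475 to 0.212 CPM per kilobase, against 4.07 for Foxj1, and deleted Foxj1 stood at 9.42 CPM per kilobase. All 15 together gave 154, 169, 298 and 318 reads in intact and 213, 94, 202 and 108 reads in deleted replicates. In CPM these sums were 11.0, 10.1, 14.6 and 13.9 in intact and 13.5, 8.63, 11.1 and 9.39 in deleted replicates, and the groups overlapped. Of 15 genes 6 could be tested, with 3 fitted above 0, 3 below and 0 called by edgeR, where 7.90% of all genes were called. At an unadjusted p under 0.05 stood 0 of the 6, where 26.2% of all genes passed. So few genes cannot show whether the dyneins differed less than genes in general.

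Dnah8 had the highest intact level among the dyneins. It gave 53, 52, 76 and 40 reads in intact replicates 1 to 4 (3.78, 3.11, 3.72 and 1.74 CPM). In deleted replicates 1 and 3 it gave 28 and 54 reads (1.78 and 2.97 CPM), but only 1 read each in deleted replicates 2 and 4 (exact 95% Poisson interval 0.0253 to 5.57 reads). Those libraries are the same pair that held 4 and 1 Kat7 reads. Over all 8 libraries the genotypes overlapped, and the log2 fold change was -1.26 ± 0.86 (edgeR adjusted p = 0.382). Without the pair that kept Kat7 reads the value was -4.99 with an adjusted p of 0.00349. That fit compares 2 deleted with 4 intact libraries and the pair was known from earlier results of these data. It keeps only the deleted libraries with 1 read each, so a strongly negative value was given in advance. It called 2299 of all genes, against 1066 with all libraries, and Dnah8 was not called in 17 of 18 alternatives. Dnah8 (Entrez 13417) lies on chromosome 17 from 30626935 to 30875762.

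The other tested dyneins overlapped between genotypes. Dnah7b stood at 1.28 to 1.79 CPM in intact cultures and at 4.37, 1.29, 0.769 and 0.348 CPM in deleted cultures 1 to 4. Dnah17 reached its highest value, 3.58 CPM, in intact replicate 4, and Dnah1 ran from 0.570 to 2.14 CPM in intact libraries and from 1.01 to 1.78 CPM in deleted ones. Dnah2 overlapped too, at 0.359 to 1.47 CPM and 0.761 to 1.13 CPM. Reads of Dnah7a, Dnah7b and Dnah7c are uncertain, since 19.96%, 23.5% and 24.88% of their 100-base windows occur also in another Dnah gene.

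**Figure D4:**
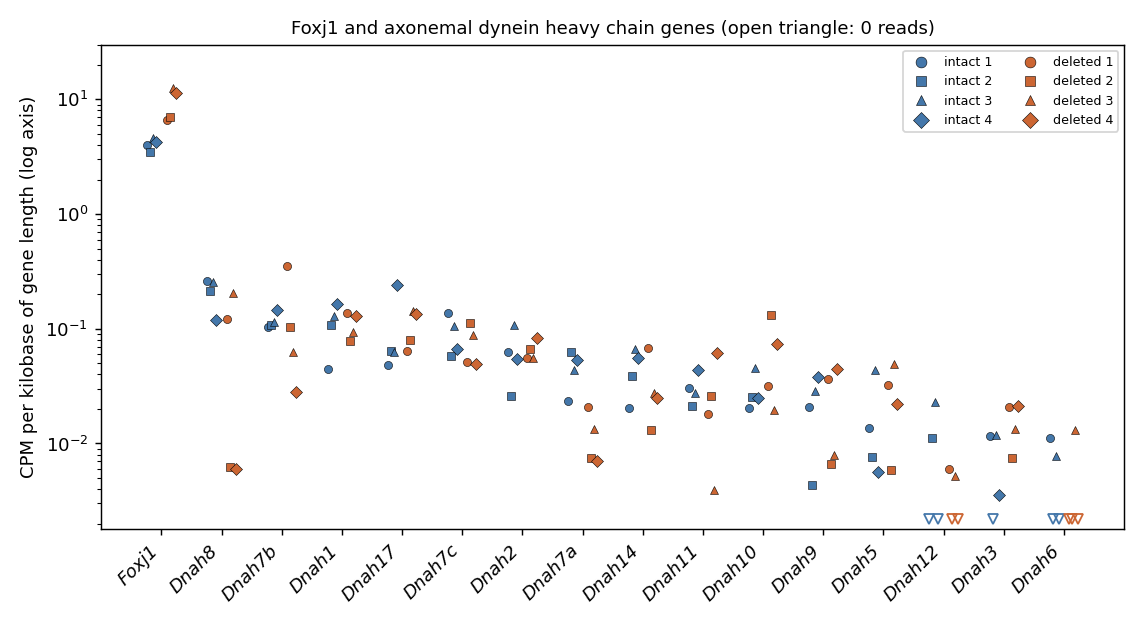
CPM per kilobase of gene length (vertical log axis) for Foxj1 and the 15 Dnah genes in each library, with open triangles for libraries with 0 reads. Foxj1 stands above every dynein gene in every library, and Dnah8 shows deleted replicates 2 and 4, with 1 read each, far below the other libraries.

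Among 43 further motile cilium genes, 18 passed the filter, 0 were called higher by edgeR and 3 were called lower. With an unadjusted p under 0.05, 1 was higher and 5 were lower, where 15.8% of all genes were higher and 10.4% lower. In 6 of the 18 (33.3%) all deleted libraries lay below all intact ones and in 0 above, against 9.21% of all genes below and 10.7% above. The median log2 fold change was -0.13. The 16.67% called, all lower, lies above the 7.90% of all genes called and the 2.80% called lower, but it rests on 3 genes among those that passed the filter. Mns1, which is needed for assembly of motile axonemes and sperm tails, stood at 15.6, 14.1, 17.9 and 16.4 CPM in intact cultures and 9.0, 8.54, 10.2 and 7.22 CPM in deleted replicates. It fell by 0.87 ± 0.16 on the log2 scale (edgeR adjusted p = 0.0186), with every deleted library below every intact one. Myb, a transcription factor of proliferating progenitors and of early multiciliated cells, stood at 6.99, 8.97, 5.97 and 10.9 CPM against 3.42, 3.76, 3.68 and 2.17 CPM. It fell by 1.33 ± 0.28 (edgeR adjusted p = 0.0276). Ccdc40, which sets the spacing of dynein arms, fell by 1.50 ± 0.38 (edgeR adjusted p = 0.0464) on 11, 19, 18 and 39 reads in intact and 5, 5, 7 and 5 reads in deleted replicates. All 3 lost their call without any 1 of the intact libraries (adjusted p up to 0.0677, 0.0992 and 0.132), and Ccdc40 also with deleted replicate 1, 3 or 4 left out (up to 0.0934). Over all genes, 189 to 261 were called without 1 intact library, against 1066 with all libraries. The calls of Mns1, Myb and Ccdc40 held in 12 of 18, 10 of 18 and 4 of 17 alternatives.

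The 6 multiciliation regulators of that list differed in level. Myb, given above, was the most abundant. Ccno, a cyclin-like protein of centriole amplification, ran from 0.598 to 1.17 CPM in intact libraries and from 0.0918 to 1.39 CPM in deleted ones (edgeR adjusted p = 0.753), and Trp73 from 0.342 to 0.523 and from 0.0870 to 0.384 CPM, too low for the test. The other three gave almost no reads. Mcidas gave 2 reads each in intact replicates 1 and 4 and 0 in the other libraries, Gmnc 1 read each in intact replicate 1 and deleted replicate 3, and Deup1 1 read each in intact replicate 1 and deleted replicate 4. Of 10 ependymal markers, Sntn was at 0 in all 8 libraries, Tmem212 gave 1 read in deleted replicate 3 alone, and Pifo 1 read each in intact replicate 3 and deleted replicate 3. The 10 markers, Foxj1 included, summed to 12.1 to 15.0 CPM in intact cultures and 22.3 to 39.1 CPM in deleted libraries, with most of the sum from Foxj1. Ccdc153, another ependymal marker, stood at 0.641, 0.478, 0.489 and 0.654 CPM in intact cultures and 0.888, 1.84, 1.65 and 5.91 CPM in deleted replicates (2.16 ± 0.59, edgeR adjusted p = 0.0579). Of the 10 markers only 3 passed the filter on low counts. Foxj1 and Ccdc153 were fitted above 0, and the remaining 1 was fitted below, with a log2 fold change of -0.18. Choroid plexus markers, from the other ciliated epithelium of the ventricles, summed to 8.59 to 14.4 CPM in intact cultures and 3.86 to 15.7 CPM in deleted libraries.

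By edgeR 0 of the 7 tested RFX genes were called, where 7.90% of all tested genes were. Of 8 genes, Rfx6 gave 2 reads in intact replicate 3 and 0 in the others, and was not tested. Of the 7 tested, 6 were fitted above 0, where 7422 of all 13498 genes were. Their median log2 fold change was 0.26, against 0.05 over all genes. Genotypes did not overlap in 0 of the 7, against 19.9% of all genes. Only 1, Rfx3, passed an unadjusted p under 0.05, where 26.2% of all genes passed. Rfx3 was named here after its value was seen. So few genes cannot show whether the RFX genes differed less than genes in general. With library totals alone the median of the RFX genes was 0.10, where that of all genes was -0.09.

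Rfx4, an activator of ciliary and Hedgehog pathway genes in the developing brain, had the highest intact level of all members at 33.1 CPM per kilobase. It stood at 151, 121, 122 and 146 CPM in intact cultures and at 100, 216, 249 and 200 CPM in deleted replicates. Deleted replicate 1 was the lowest of all 8 libraries and the other 3 deleted ones were the highest. The log2 fold change was 0.50 ± 0.25 (edgeR adjusted p = 0.245). Without deleted replicate 1 it was 0.72 with an adjusted p of 0.0165. Leaving out the lowest deleted library could only raise the fitted value, and 1721 of all genes were called in that fit, against 1066 with all libraries. Rfx4 (Entrez 71137) lies on chromosome 10 from 84756036 to 84906538.

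Rfx3, which drives ciliogenesis in neural and other epithelia, stood at 54.5, 62.7, 51.0 and 54.2 CPM in intact cultures and 59.0, 69.2, 73.5 and 76.3 CPM in deleted replicates (0.32 ± 0.12, edgeR adjusted p = 0.136). Deleted replicate 1 lay within the intact range and the other 3 deleted libraries above it. Rfx7 lay at 81.3 to 91.1 CPM in intact cultures and at 68.9, 85.2, 103 and 105 CPM in deleted replicates. Rfx2, which serves motile cilia, was low, at 1.88 to 2.84 CPM and 1.76 to 4.63 CPM. Rfx1 ran from 8.25 to 18.7 and from 10.1 to 22.7 CPM, and Rfx5, a regulator of MHC class II genes, from 10.4 to 11.0 and from 10.3 to 17.0 CPM. The exons of Rfx5 share 26.8% of their bases with B230398E01Rik on the opposite strand.

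**Figure D5:**
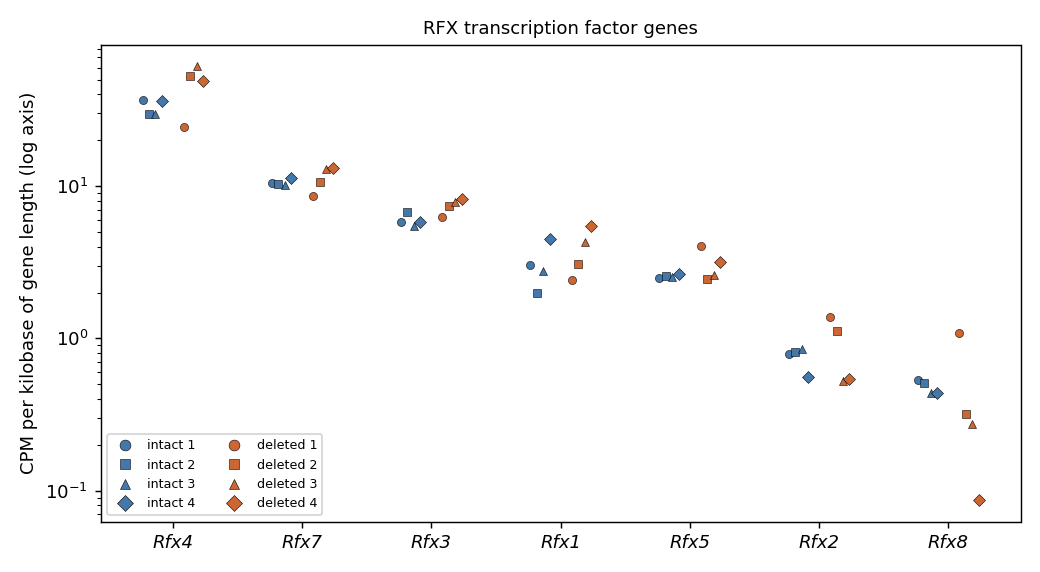
CPM per kilobase of gene length (vertical log axis) for the 7 tested RFX genes in each library, intact replicates in blue and deleted replicates in orange. For Rfx4, deleted replicates 2 to 4 lie above the intact libraries and deleted replicate 1 below them, and the genotypes overlap in all 7 genes.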

How the data were processed

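Gene expression was measured in 8 neurosphere cultures, 1 per fetus, by RNA sequencing (100-base single-end reads). The files deposited by the authors hold unnormalized read counts, whole numbers for 27179 Entrez identifiers. The submitters' processing notes name CASAVA 1.8.2, featureCounts and mm10. An aligner and a strand setting are not given in the sources used here. Identifiers were matched to a RefSeq table of GRCm38.p6 (25275 matched, 1904 did not and were tested without a symbol). Exon overlaps came from GENCODE annotation of GRCm38.

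Genes were filtered with filterByExpr (minimum count 10), scaled by TMM and tested with edgeR 4.0.16 in R 4.3.3, deleted against intact with no covariate, and adjusted over all 13498 genes tested. The standard error is the size of the log2 fold change divided by the root of the F statistic, with a prior count of 0.125 (2 for log2 CPM). Littermates were treated as independent, so p-values measure the spread between these fetuses.

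Alternatives used DESeq2 1.42.0, limma 3.58.1, other filters and scalings, and libraries left out, among them 2 pairs of deleted libraries known from earlier results (most Kat7 reads, highest mitochondrial share). On simulated data the procedure called 32 of 85 changes of 2-fold (37.6%) and 84 of 113 of 4-fold (74.3%). The simulation drew independent libraries and left 13093 of 13291 tested genes unchanged. Its shares need not hold for the real libraries, which include littermates and gave 1066 calls. A gene that was not called may therefore still differ. Single counts carry exact Poisson intervals, which cover counting error only. The members and lists were chosen with earlier results of these data known. The genes named were Foxj1, called members, members whose genotypes did not overlap, and in each family the tested member with the highest intact level per kilobase or the largest fold change; others were chosen after their values were seen. Of the further lists, called genes were named, except 1 that is not reported here.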

Additional observations from a re-analysis of the deposited data

How the results depend on the processing

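Over 18 alternatives the count of all genes called, 1066 with all libraries, was 673 with library totals alone (309 higher and 364 lower, against 688 and 378; the median of all genes moved from 0.05 to -0.09), 2200 with DESeq2, 414 with litter as a random block in limma-voom, 193 with littermates summed, and 2299 without the pair of deleted libraries with most Kat7 reads. It was 189 to 261 with 1 intact library left out and 755 to 2182 with 1 deleted library left out. The loss of a call without an intact library was therefore shared by most genes called. The 2 primary cilium calls became 0 with library totals alone, with no filter beyond 1 count, with litter as a random block and with littermates summed, 4 with DESeq2, 3 with at least 1 CPM in 4 libraries, 1 without the pair of deleted libraries with the highest mitochondrial share (Bbs4, with Ift46 and Bbs7 both lost), 7 without the pair with most Kat7 reads (Ift46 among them, Bbs7 lost), and 0 to 6 with 1 library left out. They were 0 whichever intact library was left out, 6 without deleted replicate 1 and 5 without deleted replicate 2. The 1 motile call became 0 with litter as a random block and with littermates summed, 3 without the pair with most Kat7 reads (Foxj1, Dnah8 and Dnah10), and 0 to 1 with 1 library left out. The 0 RFX calls became 1, Rfx4, without either pair and without deleted replicate 1, a range of 0 to 1 with 1 library left out. Ift20 turned to -0.012 with library totals alone. Tctn3 turned to 0.025 without the pair with most Kat7 reads, 0.037 without intact replicate 4, 0.018 without deleted replicate 2 and 0.040 without deleted replicate 3, in a range of -0.11 to 0.040 with 1 library left out. The cause of these changes was not tested.

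The labels number replicates 1 to 4 in both genotypes. Same-numbered libraries correlated in their deviations from the group means, across genes, at 0.0961, 0.221, 0.110 and 0.331, and deleted replicate 1 correlated best with intact replicate 3 (0.251), so the numbers were not taken as pairs. With the replicate number as a block 319 genes were called in all, 0 of them primary cilium members, 1 motile member and 0 RFX members. Of the 15 dyneins 9 did not pass the filter on low counts.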

Other observations

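Dnah7a did not pass the filter on low counts, yet its CPM in all 4 deleted libraries lay below all 4 intact ones. It gave 4, 13, 11 and 15 reads in intact and 4, 1, 3 and 1 reads in deleted replicates 1 to 4. With no filter beyond 1 count its log2 fold change was -1.85 ± 0.60 (edgeR adjusted p = 0.117). Dnah10 went the other way in deleted replicates 2 and 4, with 20 and 12 reads (1.84 and 1.04 CPM), against 7 and 5 in deleted replicates 1 and 3 and 4 to 13 in intact libraries. With no filter its value was 1.04 ± 0.63 (edgeR adjusted p = 0.415). Both genes were picked after their values were seen.

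The forkhead letters GTAAACA, searched on both strands, were in 2 of 45 member promoters (4.444%) and in 3.65% of all promoters. Of the 39 tested members, Foxj1, Ift80, Ift81 and Ift122 had no promoter window. Among the others, the 16 with an RFX half-site had a median log2 fold change of 0.24, with 9 above 0, 7 below and 1 called. The 19 without one had a median of 0.05, with 12 above, 7 below and 1 called.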
